A study of Arabidopsis thaliana with 4 samples.

Results

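The chloroplast genome of Arabidopsis encodes the core of the photosynthetic machinery, and 33 of its genes for photosystem I, photosystem II, the cytochrome b6f complex, the ATP synthase and Rubisco are described here. They were chosen by name: every probe set that the platform annotation pairs with 1 gene of the plastid genome whose symbol starts with psa, psb, pet, atp or rbc, with mitochondrial atp genes left out. All 33 had exactly 1 probe set, out of 22746 on the array, and all 33 were bright enough to be tested. They make up 33 of the 69 plastid-encoded genes that could be named on this array.

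Transcripts were measured in whole seedlings 2 weeks old, with 1 Affymetrix array per sample. One group was T3 transgenic plants in the Col-0 background that overexpress RECA1 (AT1G79050), here called RECA1-OE, and the controls were wild-type Col-0 plants; 2 samples of each were grown without treatment. RECA1 is a nuclear-encoded, chloroplast-targeted relative of the bacterial recombinase RecA, which pairs DNA strands in recombination and repair. The sources used here do not name the promoter of the transgene or say how many independent lines were used. Samples of a group are called biological replicates, with no word on separate growth, so p-values measure only the spread between these samples.

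Photosynthesis genes of the chloroplast are mostly read out as long transcripts that cover several genes and are then cut and trimmed into smaller messages. A bacterial-type polymerase with plastid-encoded core subunits transcribes most of them, and nuclear-encoded sigma factors and RNA-binding proteins set which messages are made and kept. Photosystem II splits water, the cytochrome b6f complex carries electrons on to photosystem I, the ATP synthase uses the proton gradient so formed, and Rubisco fixes carbon dioxide. Plastid messages mostly lack long poly(A) tails, while the labels' protocol primed the RNA with oligo(dT), so each signal stands for the RNA that this primer captured. The part of capture in the differences below was not tested.

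Each array gave 1 log2 MAS5 signal per probe set, with a median between 7.58 and 7.63. Pearson's r across the 13647 tested probe sets was 0.980 between the RECA1-OE arrays and 0.966 between the Col-0 arrays. Probe sets are not independent replicates, and 4 arrays limit the precision of every value. RECA1 could not be named on the array, so its own level is not analysed here and gives no check of the labels. Levels of different genes are not compared, because probes differ in their response.

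Plastid photosynthesis messages had a lower mean in RECA1-OE for 31 of the 33 genes. Of these, 11 fell by limma at an adjusted p under 0.05, and 22 of the 33 did not pass; 0 rose. At an unadjusted p under 0.05 limma gave 17 lower and 0 higher. Across all tested probe sets 9.97% were called lower and 9.94% higher by the same rule, 19.9% in either direction, and 53.1% had a lower mean. The members' median log2 change was -0.49, against -0.04 for all tested probe sets, and both RECA1-OE arrays lay under both Col-0 arrays for 24 of the 33 genes, against a background of 35.1%. In whole seedlings, fewer green cells or plastids and less RNA in each of them cannot be told apart.

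By complex, the calls stand beside 9.97% called lower over all tested probe sets. At that share, 1 call among 5 or 6 genes says little about a complex. Photosystem II had 8 of its 15 genes lower with a median log2 change of -0.71, and photosystem I 1 of 5 with a median of -0.43. The cytochrome b6f complex and the ATP synthase had 1 of 6 each, with medians of -0.25 and -0.36. The Rubisco gene rbcL did not pass. No test was made between complexes, so none of these shares is shown to differ from another.

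**Figure D1:**
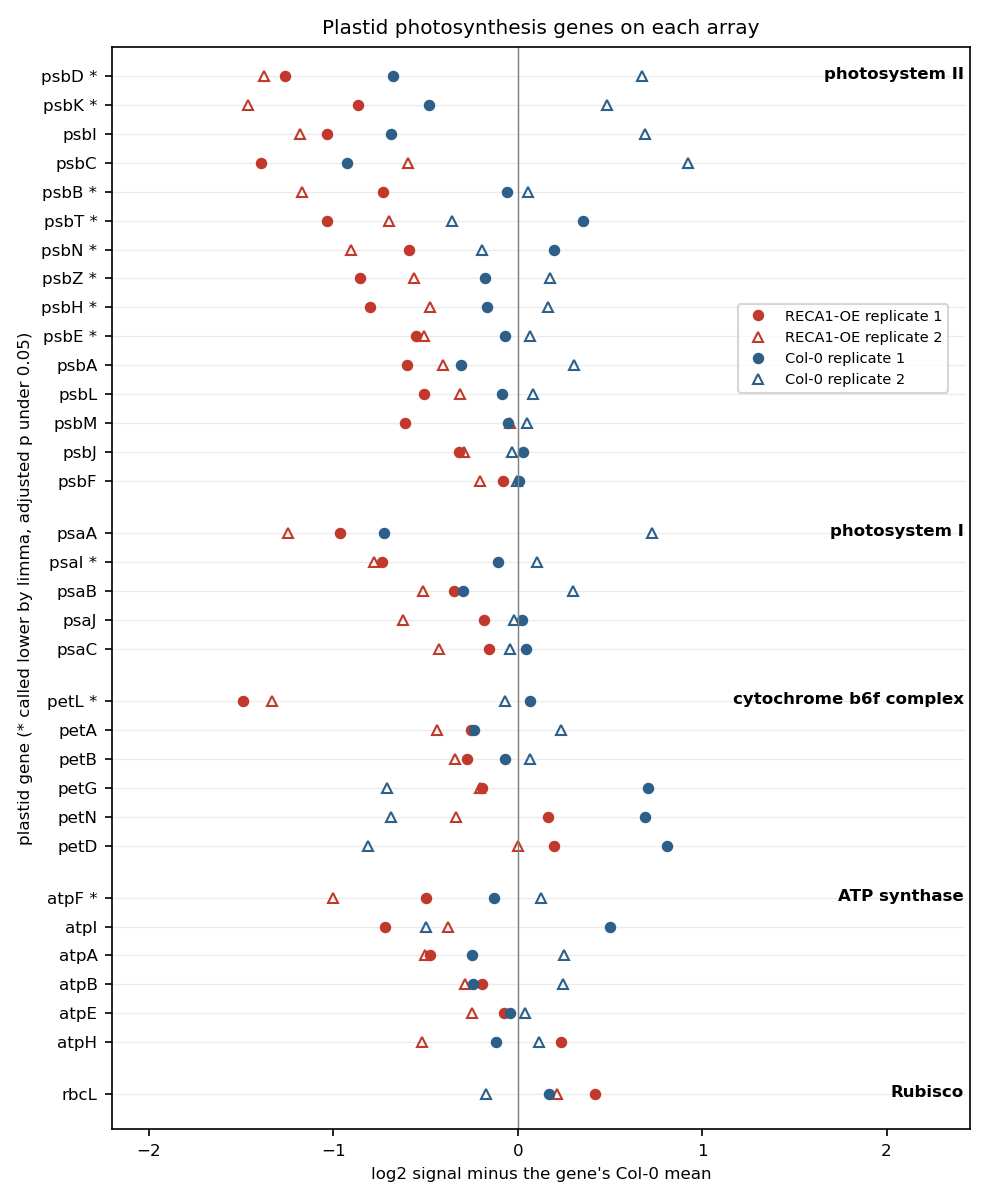
Each row is 1 plastid gene, grouped by complex, and each point is 1 array, placed by its log2 signal minus the gene's Col-0 mean (horizontal axis); red points are RECA1-OE, blue points Col-0, and a star marks the 11 genes called lower by limma. The red points lie left of the blue ones for 24 genes, and psbC, petD, psaA, petG, psbI, petN, psbD, atpI and psbK show Col-0 arrays more than 0.9 apart.

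In photosystem II, genes of the reaction centre, the inner antenna and the small membrane subunits were called. psbD encodes one of the paired reaction-centre proteins and measured 8.03 and 7.91 in RECA1-OE, against 8.62 and 9.97 in Col-0. It fell by 1.32 ± 0.38 on the log2 scale (SE), or 2.50-fold, just inside the threshold (limma adjusted p = 0.0498). Col-0 replicate 2 stood far above the other 3 arrays for this gene, and the log2 change was -0.65 without that array and -1.99 without Col-0 replicate 1. The other reaction-centre gene, psbA, whose protein is replaced throughout the day as light damages it, measured 10.998 and 11.19 in RECA1-OE, against 11.29 and 11.90 in Col-0. The groups did not overlap, but its log2 change of -0.50 ± 0.21 did not pass (limma adjusted p = 0.142).

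The inner antenna proteins, which bind chlorophyll around that reaction centre, are encoded by psbB and psbC. psbB measured 9.73 and 9.29 in RECA1-OE, against 10.41 and 10.52 in Col-0, and fell by 0.95 ± 0.19 (limma adjusted p = 0.0137). Its Col-0 arrays lay close together. psbC measured 9.15 and 9.95 in RECA1-OE, against 9.62 and 11.47 in Col-0, so the groups overlapped. Its log2 change of -0.995 ± 0.54 was smaller than the difference of 1.85 between the Col-0 arrays and did not pass (limma adjusted p = 0.233).

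Of the small membrane subunits of photosystem II, psbK, psbT, psbH, psbZ and psbE were called and psbI, psbF, psbL, psbJ and psbM were not. psbK, next to the core of the complex, measured 10.83 and 10.23 in RECA1-OE, against 11.21 and 12.18 in Col-0, and fell by 1.16 ± 0.32 (limma adjusted p = 0.0435). Its neighbour psbI measured 10.32 and 10.18 in RECA1-OE, against 10.67 and 12.04 in Col-0, a log2 change of -1.11 ± 0.38 that was the nearest miss among the members (limma adjusted p = 0.0835). Both genes had their highest value on Col-0 replicate 2, and without that array the log2 change was -0.68 for psbK and -0.42 for psbI.

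psbT, which helps keep the paired complexes together, measured 9.54 and 9.87 in RECA1-OE, against 10.93 and 10.22 in Col-0, and fell by 0.87 ± 0.25 (limma adjusted p = 0.0477). Here Col-0 replicate 1 was the higher control, and the log2 change was -0.51 without it. psbH, a phosphorylated subunit, measured 11.88 and 12.20 in RECA1-OE, against 12.51 and 12.84 in Col-0, and fell by 0.64 ± 0.18 (limma adjusted p = 0.0436). psbZ, at the edge towards the outer antenna, measured 12.03 and 12.32 in RECA1-OE, against 12.71 and 13.06 in Col-0, and fell by 0.71 ± 0.18 (limma adjusted p = 0.0305). In these 3 genes both RECA1-OE arrays lay under both controls, as in 35.1% of all tested probe sets.

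psbE and psbF encode the subunits of the cytochrome of photosystem II. psbE measured 12.83 and 12.87 in RECA1-OE, against 13.32 and 13.45 in Col-0, with replicates close together in both groups, and fell by 0.53 ± 0.13 (limma adjusted p = 0.0315). psbF measured 13.80 and 13.68 in RECA1-OE, against 13.89 and 13.88 in Col-0, and its log2 change of -0.14 ± 0.13 did not pass; the sign turned to 0.02 after quantile normalization. psbN, known in tobacco as an assembly factor of photosystem II and read from the opposite strand between psbT and psbH, measured 7.99 and 7.67 in RECA1-OE, against 8.78 and 8.39 in Col-0. It fell by 0.75 ± 0.21 (limma adjusted p = 0.0443). The remaining small subunits, psbL, psbJ and psbM, had log2 changes of -0.41 ± 0.15, -0.30 ± 0.13 and -0.33 ± 0.20 and did not pass.

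In photosystem I the call was in a small subunit. psaI measured 10.96 and 10.92 in RECA1-OE, against 11.59 and 11.81 in Col-0, and fell by 0.76 ± 0.15, or 1.69-fold (limma adjusted p = 0.0133). Its groups were separated by 0.63, more than the difference between replicates of either group. psaA, one of the large proteins that carry the reaction centre, measured 9.92 and 9.63 in RECA1-OE, against 10.15 and 11.61 in Col-0. Its log2 change of -1.11 ± 0.41 was large in size but did not pass (limma adjusted p = 0.0993), and it was -0.38 without Col-0 replicate 2. The partner gene psaB, the iron-sulfur protein gene psaC and the small subunit gene psaJ had log2 changes of -0.43 ± 0.21, -0.29 ± 0.16 and -0.40 ± 0.17. All 5 genes of the complex had both RECA1-OE arrays under both Col-0 arrays, against 35.1% of all tested probe sets.

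In the cytochrome b6f complex a single small subunit stood out. petL, which helps stabilise the complex, measured 10.02 and 10.18 in RECA1-OE, against 11.57 and 11.44 in Col-0. Replicates differed by at most 0.16 within a group, while the groups were 1.26 apart. It fell by 1.41 ± 0.15, or 2.66-fold, and had the lowest adjusted p of the 33 genes (limma adjusted p = 0.00171). Its log2 change stayed between -1.49 and -1.33 without each array in turn, and it was the only one of the 11 called genes that kept the call in all 4 of those fits.

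Among the large subunits of that complex no gene passed. petA, for cytochrome f, and petB, for cytochrome b6, had log2 changes of -0.35 ± 0.19 and -0.31 ± 0.13 and did not pass. petD, for subunit IV, measured 8.01 and 7.82 in RECA1-OE, against 8.62 and 7.005 in Col-0, so that the RECA1-OE arrays lay between the Col-0 arrays. The small subunit genes petG and petN showed the same layout, with 8.69 and 8.68 in RECA1-OE against 9.59 and 8.18 in Col-0 for petG, and 8.48 and 7.99 in RECA1-OE against 9.01 and 7.63 in Col-0 for petN. The log2 changes of petD, petG and petN were 0.10 ± 0.46, -0.20 ± 0.40 and -0.09 ± 0.41, too uncertain to give a direction.

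Of the ATP synthase genes, atpF, for the stalk that joins the membrane part to the catalytic head, measured 11.07 and 10.57 in RECA1-OE, against 11.44 and 11.70 in Col-0, and fell by 0.75 ± 0.20 (limma adjusted p = 0.0384). Without RECA1-OE replicate 2 its log2 change was -0.50. The catalytic head genes atpA, atpB and atpE had log2 changes of -0.49 ± 0.18, -0.24 ± 0.18 and -0.16 ± 0.14 and did not pass. atpB measured 13.95 and 13.86 in RECA1-OE, against 13.90 and 14.39 in Col-0, with overlapping groups. The membrane genes atpH, for the proton-driven ring, and atpI also had overlapping groups, with log2 changes of -0.14 ± 0.25 and -0.55 ± 0.32.

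rbcL, for the large subunit of Rubisco, was the one member whose RECA1-OE values both exceeded both Col-0 values, against 29.9% of all tested probe sets. It measured 10.62 and 10.41 in RECA1-OE, against 10.37 and 10.03 in Col-0. The groups were only 0.04 apart, and the log2 change of 0.32 ± 0.17 did not pass (limma adjusted p = 0.238). It kept a positive sign without each array in turn, between 0.15 and 0.49.

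The median difference between Col-0 replicates was 0.35 in size for these genes, against 0.49 for the 36 other plastid genes and 0.19 over all tested probe sets. Between RECA1-OE replicates it was 0.195 for the members, against 0.30 for the other plastid genes and 0.18 over all. Col-0 replicates differed by more than 0.9 in 9 members, or 27.3%, against 3.0% of all tested probe sets, a limit set after the values were seen. In 5 of the 9, psbC, psaA, psbI, psbD and psbK, replicate 2 was the higher one, and in petD, petG, petN and atpI replicate 1 was. Such a spread was not particular to the members. Among the other plastid genes, rps2, rpoB, rps14, ycf3, rpl20, clpP, ndhF, ndhG and ndhH also had Col-0 replicates more than 0.9 apart. For 15 of the 33 genes the Col-0 replicates differed by more than the groups did, as they did for 14 of the 36 other plastid genes and 4658 of the 13647 tested probe sets.

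**Figure D2:**
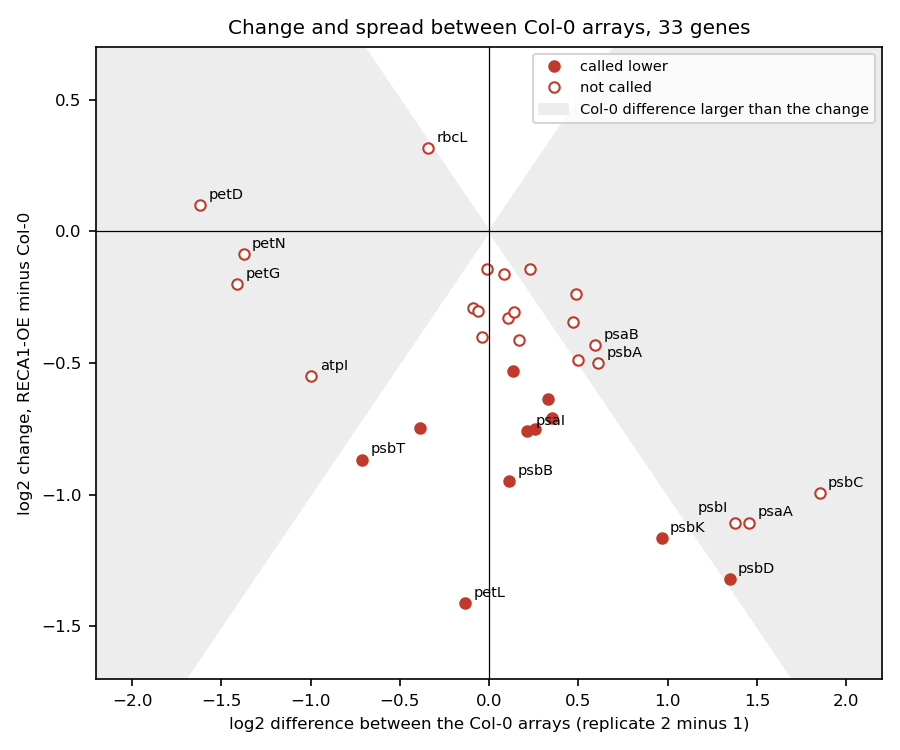
Each point is 1 of the 33 genes, with the log2 difference between the Col-0 arrays on the horizontal axis and the log2 change, RECA1-OE minus Col-0, on the vertical axis; filled points were called lower. The 15 points in the shaded area have a Col-0 difference larger than the change, psbD among them, and petL combines the largest change with close Col-0 arrays.

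The set of called genes depended on single arrays of either group. Calls over all tested probe sets also moved strongly with the array left out, so these changes in count are not particular to the members. Without RECA1-OE replicate 1, atpF, petL, psbB and psaJ were called, and without RECA1-OE replicate 2, petL and psbM. Without Col-0 replicate 1, 16 members were called lower and petD was called higher. Without Col-0 replicate 2, 11 were called lower again, among them petD, petG, petN and atpI, which had not been called with all arrays. In the fits without a Col-0 array limma shrank every gene fully to the common trend, so the single Col-0 array left was assumed to vary like the rest.

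**Figure D3:**
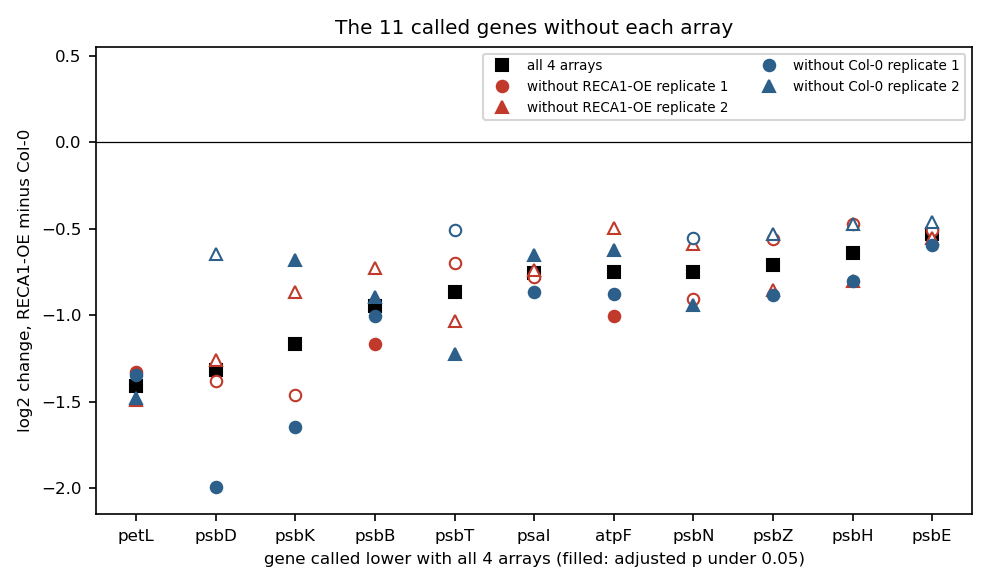
Log2 change, RECA1-OE minus Col-0, of the 11 called genes (horizontal axis, ordered by change) with all 4 arrays (black squares) and without each array in turn; filled markers have a limma adjusted p under 0.05. All values lie below 0, petL is filled throughout, and psbD spans from -1.99 to -0.65.

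Sorted by mean signal, which for different probe sets is no measure of relative abundance, the members fell into 3 sets of 11. In the 11 dimmest, with means from 7.86 to 10.33, the median log2 change was -0.75 with 4 called, in the middle 11 it was -0.71 with 6 called, and in the 11 brightest, from 12.58 to 14.44, it was -0.33 with 1 called. The median difference between Col-0 replicates was also larger in the dimmest 11, at 1.35, than in the brightest, at 0.13. No test was made between these sets. The highest signals on the arrays were between 14.76 and 14.96, so the brightest members lay near the top of the scale; the part of this in their changes was not tested.

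Genes of 1 transcription unit share a precursor RNA, so their values are not independent; the order of genes within a unit was taken from general knowledge of plastid genomes. In the psbB unit the log2 changes with all 4 arrays were -0.95 for psbB, -0.87 for psbT, -0.64 for psbH, -0.31 for petB and 0.10 for petD, of which petB and petD did not pass. This order was not kept without either Col-0 array: psbT was at -1.22 and petD at -0.71 without Col-0 replicate 2, and psbT at -0.51 lay above psbH at -0.80 without Col-0 replicate 1. In the psbD unit the changes were -1.32 for psbD, -0.995 for psbC, which did not pass, and -0.71 for psbZ. Without Col-0 replicate 2 they were -0.65, -0.07 and -0.53, so that order was lost too. In the petL unit, petL at -1.41 stood beside petG at -0.20 and psaJ at -0.40. The psbE and atpI units had no such order, with psbF at -0.14 between psbE at -0.53 and psbL at -0.41, and atpF at -0.75 between atpH at -0.14 and atpA at -0.49.

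In 9 units, a set and a comparison chosen after the values were seen, the first member had a more negative log2 change than the last in all 9. The genes petN and psbM were grouped as an operon for the counts by operon but were left out of the 9 units. They went the other way, with -0.09 for petN and -0.33 for psbM, so the count of 9 omits a pair against it. First and last mean members only, so other plastid genes of the same stretch are left out. Next to psaJ at -0.40, rpl33 and rps18 had -0.74 and -0.77. Between psaI at -0.76 and petA, ycf4 and cemA had -1.07 and -0.83. By contrast rps14, next to psaB at -0.43, had -0.19. A trend along whole units was not tested. The difference, first minus last, was -1.05 in the psbB unit, -1.01 in the petL unit and -0.68 from psaA to psaB, but only -0.06 from psbK to psbI, -0.06 from atpI to atpA and -0.08 from atpB to atpE. Without Col-0 replicate 2 it was -0.18 in the psbB unit, -0.25 from psaA to psaB and -0.11 in the psbD unit, against -0.61 there with all arrays. Without Col-0 replicate 1 it was -1.91, -1.11 and -1.11 in those 3 units. In the petL unit the log2 ratio of petL to psaJ was -4.26 and -3.66 in RECA1-OE, against -2.90 and -2.99 in Col-0, and the groups did not overlap. The ratio of first to last had groups that did not overlap in 5 of the 9 units, and they overlapped in the psbD, psbK, atpI and atpB units. No background share was computed for such ratios. With 2 arrays a group, an exact two-sided permutation test of such a ratio cannot give a p below 0.333. Signal strength differed along the units too. The first probe set was dimmer than the last on every array in the psbD, psaA, psaI, petL and atpI units. It was brighter on every array in the psbB and psbK units, and mixed in the psbE and atpB units. The dimmest members had a median log2 change of -0.75, the brightest -0.33. The part of signal strength in the differences from first to last was not tested. The count of 9 became 8 without either RECA1-OE array or Col-0 replicate 2, and 7 when Col-0 replicate 1 was left out.

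**Figure D4:**
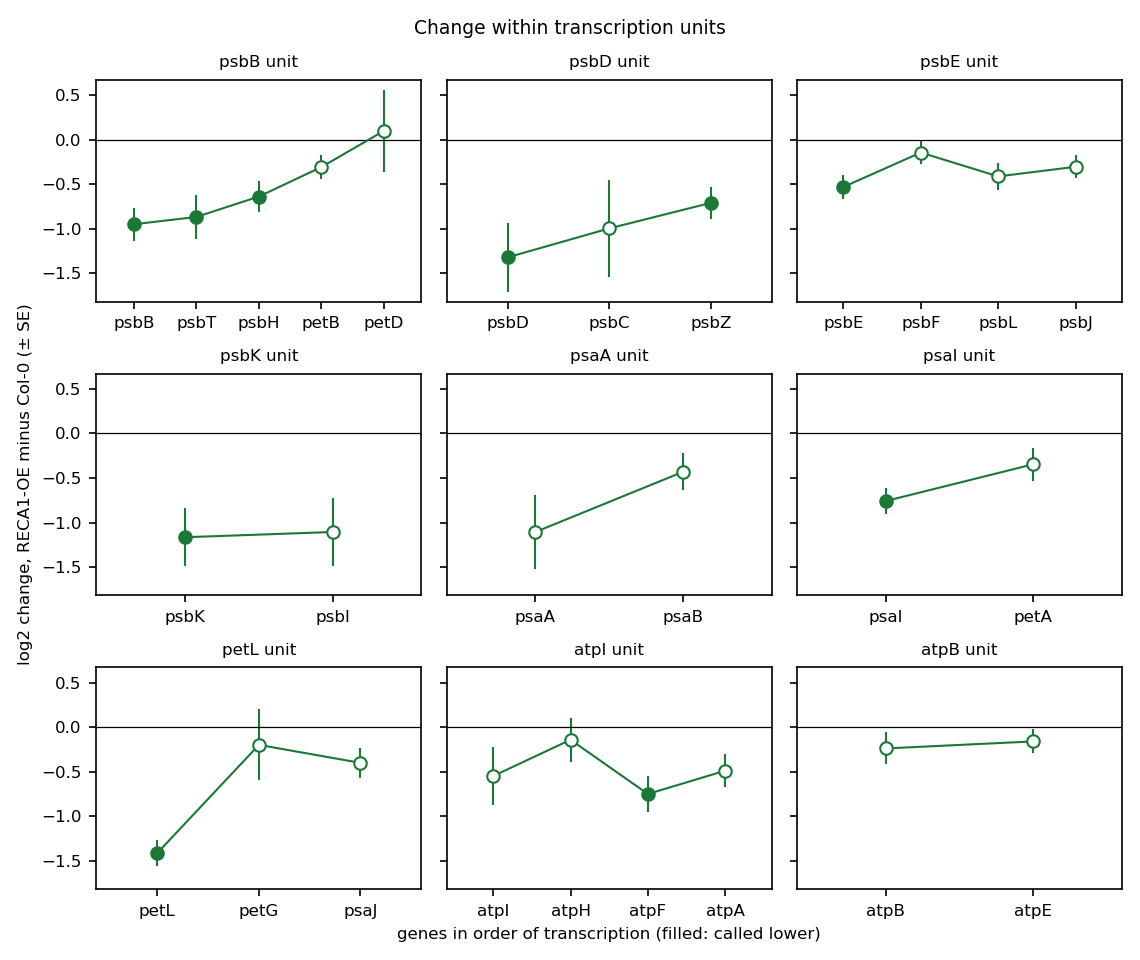
Each panel is 1 plastid transcription unit, with its member genes in order of transcription on the horizontal axis and the log2 change, RECA1-OE minus Col-0, with its SE on the vertical axis; filled points were called lower. In all 9 panels the first gene shown lies below the last shown, by between 0.06 and 1.05. The petN and psbM pair, which goes the other way, and plastid genes that are not members are left out.

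The rest of the plastid genome was lower as well. Of the 36 other plastid-encoded genes, 8 fell, 0 rose by limma, also at an unadjusted p under 0.05, and 28 did not pass, with a median log2 change of -0.64. Both RECA1-OE arrays lay under both Col-0 arrays in 72.2% of them, against 72.7% of the photosynthesis genes and 35.1% of all tested probe sets. In the genes of the plastid ribosome and polymerase 5 of 19 fell, with a median of -0.69, and in the NDH complex, a proton pump of cyclic electron flow, 1 of 10 fell, with a median of -0.42. Over all tested probe sets 9.97% were called lower, with a median log2 change of -0.04. The count of calls in the NDH complex was thus at the background, though its median was lower. ycf4 and cemA, which lie between psaI and petA, fell by 1.07 ± 0.21 and 0.83 ± 0.17. Leaving out RECA1-OE replicate 1 brought limma's 8 calls to 0, with 14 lower at an unadjusted p under 0.05. They became 4 without RECA1-OE replicate 2, 19 lower with 1 higher when Col-0 replicate 1 was left out and 15 when Col-0 replicate 2 was.

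**Figure D5:**
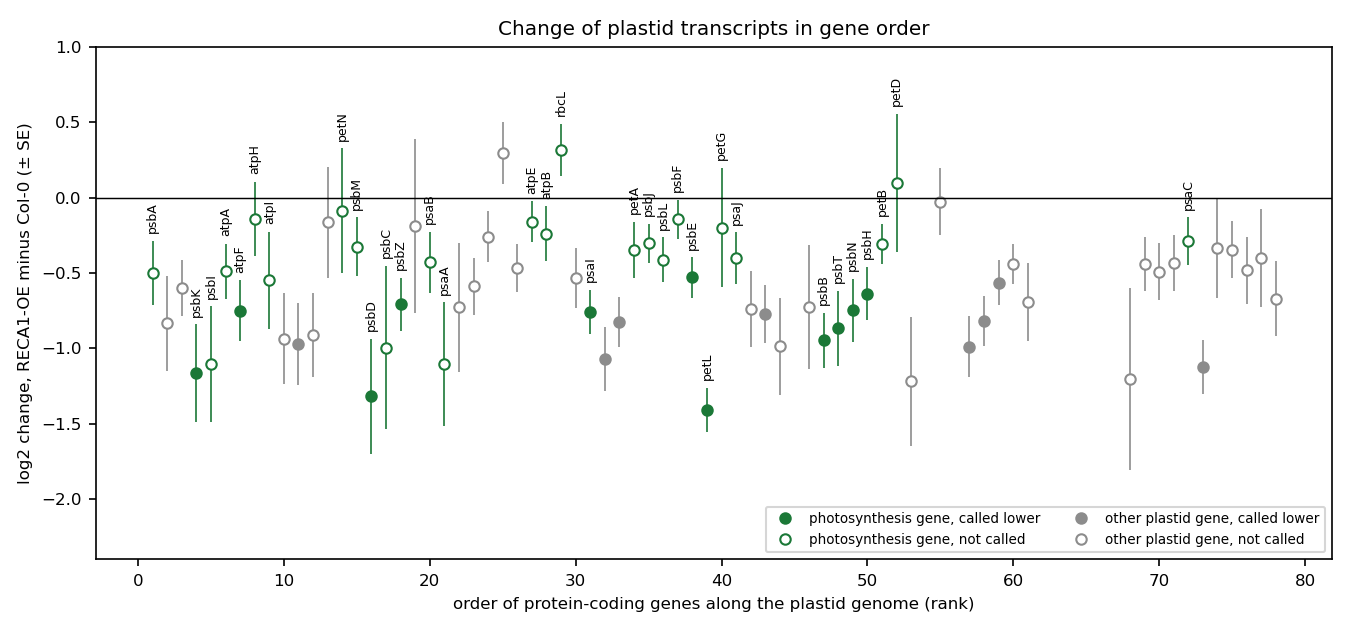
Log2 change, RECA1-OE minus Col-0, with its SE (vertical axis) for the 69 plastid-encoded genes by their rank along the plastid genome; green points are the 33 photosynthesis genes, grey points the other 36, and filled points were called lower. Nearly all points lie below 0, with rbcL, petD and 1 grey point, ndhK, above.

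Set against the other plastid genes, few photosynthesis genes stood apart. For this the arrays were centred on the median deviation of the 36 other plastid genes, a choice made after the values were seen. petL was then lower by 0.80 ± 0.25 and psbD by 0.71 ± 0.29, and rbcL was higher by 0.93 ± 0.26, with limma adjusted p values of 0.0106, 0.0431 and 0.00524. The other 30 members did not pass, and the median difference was 0.12. After that centring 48.2% of all tested probe sets were called, 46.9% higher and 1.26% lower, and their median log2 change was 0.58. The centring itself shifts every probe set, so these shares are no background for the 2 lower and 1 higher members. So many calls also make the adjustment more lenient. The centring adds 1 offset per array to every probe set, and the fit treats that shared noise as independent between genes. A given ratio of change to SE also got a smaller p than in the main fit. These adjusted p values therefore cannot be set beside those of the main fit. None of the 3 kept its call without each array in turn: petL lost it when either RECA1-OE array or Col-0 replicate 1 was left out, rbcL when RECA1-OE replicate 1 or Col-0 replicate 2 was left out, and psbD in all but the fit without Col-0 replicate 1. The difference of psbD was -0.13 without Col-0 replicate 2.

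Among nuclear genes that serve the same complexes, named members were few. Of the nuclear photosystem subunits and antenna proteins, 6 of the 39 listed genes could be measured, 1 fell and 5 did not pass, with a median log2 change of -0.19. Over all tested probe sets 9.97% were called lower. PSBW, a small subunit of photosystem II, measured 13.27 and 13.43 in RECA1-OE, against 13.88 and 13.89 in Col-0, and fell by 0.53 ± 0.13 (limma adjusted p = 0.0313). That call was lost after quantile normalization, with dim probe sets kept, without the mean-variance trend, and when RECA1-OE replicate 1 or either Col-0 array was left out. On the same list PSAN, LHCB4.1 and PSBY had log2 changes of -0.20 ± 0.14, -0.19 ± 0.14 and -0.24 ± 0.18 and did not pass, and the groups of PSBY overlapped. For the ATP synthase and Rubisco, ATPC1, of the catalytic head, ATPC2 and the Rubisco activase gene RCA had log2 changes of -0.36 ± 0.14, -0.26 ± 0.23 and -0.07 ± 0.15 and did not pass. None of 30 listed sigma factors, polymerases and polymerase-associated proteins could be named on the array.

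Assembly factors of the photosynthetic complexes had a lower mean in all 7 measured cases, of which 3 fell. Over all tested probe sets 53.1% had a lower mean and 9.97% were called lower. LPA19, which helps mature a reaction-centre protein of photosystem II, measured 9.02 and 8.90 in RECA1-OE, against 9.62 and 9.81 in Col-0, and fell by 0.75 ± 0.16 (limma adjusted p = 0.0177). PAM68 and LPA2, both needed to assemble photosystem II, fell by 0.84 ± 0.20 and 0.61 ± 0.17. CCB3, of cytochrome b6 maturation, had a log2 change of -1.39 ± 0.41 and missed the threshold (limma adjusted p = 0.0515). The 3 calls became 1 without RECA1-OE replicate 1, for PSB27, 1 without RECA1-OE replicate 2, for CCB3, 6 when Col-0 replicate 1 was left out and 4 when Col-0 replicate 2 was. They became 5 after quantile normalization, 2 with no variance trend and 1, for LPA19, with no filter on dim probe sets. The list's median was -0.61.

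Of 37 listed plastid RNA-processing and translation factors, 10 had a paired probe set and 3 were bright enough to be tested. Of these 2 fell, beside 9.97% called lower over all tested probe sets. CRR21, which is needed to edit an ndhD transcript, fell by 0.94 ± 0.17 (limma adjusted p = 0.0116), and LPA66, which is needed to edit psbF RNA, fell by 0.83 ± 0.19 (limma adjusted p = 0.0253). The splicing factor gene CAF1 had a log2 change of -0.48 ± 0.19 and did not pass. All 3 probe sets were dim, and none was tested with the lowest 60% left out. With no filter on dim probe sets CRR21 alone was called. Leaving out RECA1-OE replicate 1 gave 0 limma calls among the 3, with 2 at an unadjusted p under 0.05, and without RECA1-OE replicate 2 or Col-0 replicate 2 CRR21 alone was called. Of the genes listed under organelle DNA, DRT100, OSB1 and FTSZ2-1 had log2 changes of -0.44 ± 0.14, -0.26 ± 0.23 and -0.32 ± 0.15 and did not pass. That list was set by name, and FTSZ2-1 is a plastid division gene.

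Mitochondrial messages gave little to compare with. Of 11 named mitochondrial-genome genes 2 were bright enough to be tested, and by limma neither passed. cox1, of the respiratory oxidase, measured 8.17 and 7.99 in RECA1-OE, against 7.64 and 7.71 in Col-0, a log2 change of 0.40 ± 0.18. nad4, of respiratory complex I, had a log2 change of -0.28 ± 0.15. Organ markers of the seedling were also few. For the shoot, RCA and SBPASE had log2 changes of -0.07 ± 0.15 and -0.50 ± 0.16, and for the root, PYK10 and EXPA18 had -0.43 ± 0.24 and -0.66 ± 0.28; none passed, and the part of organ make-up in the plastid values was not tested.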

How the data were processed

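Per the submitters' processing notes the authors made the values with MAS5, with no version given; the deposited table holds 1 log2 signal per probe set and array, and the log base and a common scaling were read from the values. Linear values under 1 were set to 1, and the lowest 40% of probe sets by mean log2 signal were left out, leaving 13647 with a mean of 6.82 or more. The platform annotation gave each probe set its gene, and gene symbols and plastid gene order came from RefSeq TAIR10.1; no genome build comes with the values, so no coordinates or sequences are printed. RECA1-OE was compared with Col-0 in limma 3.58.1 (R 4.3.3), with the variance trended on mean signal and 2 residual degrees of freedom. Tests were two-sided, and p-values were adjusted by Benjamini-Hochberg across the 13647 at a threshold of 0.05. SE are moderated. On simulated data for 13647 probe sets in this comparison, limma recovered 85% of 100 true log2 changes of 1 and 100% of those of 2, with 7 false calls. The simulated noise was independent, its size followed mean signal alone, and few probe sets were changed. These rates show that the fit finds known changes, and they do not hold for members whose replicates lie further apart.

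The members and gene lists were chosen with earlier results of these data known. All members are named; per-array values are given for called members and the largest change in each complex and unit, and for others chosen after their values were seen. Nuclear lists were matched by symbol or synonym, and up to 4 measured genes of each are named, by size of change among those called and then by smallest unadjusted p; PSB27, a further assembly factor, was named after its values were seen. The centring on other plastid genes and the comparison of first with last genes were added after the values were seen.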

Additional observations from a re-analysis of the deposited data

How the results depend on the processing

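The count of 11 lower members became 3 when dim probe sets were kept (petL, psaI and psbB), 4 without the mean-variance trend and 2 to 16 without each array in turn, with 0 to 1 called higher; it was 9 after quantile normalization or median centring, 10 with the lowest 60% left out, 11 with 16 added before log2 and 14 at an adjusted p under 0.1. The median log2 change of -0.49 was -0.38 after quantile normalization and -0.55 to -0.42 without each array. Calls over all probe sets, 2716, became 1787 when dim ones were kept and 746 to 3906 without each array. petL was called under each of these settings. Signs turned for psbF (0.019) and atpE (0.011) after quantile normalization, and without single arrays for petN (-0.77 to 0.60), atpH (-0.52 to 0.24), petG (-0.91 to 0.51), petD (-0.71 to 0.91) and atpB (-0.483 to 0.005). Relative to the other plastid genes, the 2 lower and 1 higher members became 0 to 5 and 0 to 4 without each array, and the median difference of 0.12 ranged from -0.033 to 0.198. With the replicate number as a block, 8 members were called lower: psbE, psbK, psbT and atpF were lost and psbC gained, and 15 of the 36 other plastid genes in place of 8, and PSBW was lost. The numbers share no stated origin, and the replicate differences of the groups correlated at -0.064 across probe sets. That value covers all tested probe sets and cannot decide whether plastid genes share a replicate effect. The median of replicate 2 minus 1 was 0.24 in RECA1-OE and 0.24 in Col-0 for the 36 other plastid genes. For the members it was -0.12 and 0.14. The block stands only as a further setting. Averaging the probe sets of a gene changed nothing, since each member has 1. The cause of these changes was not tested.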
